A study of Mus musculus with 40 samples.

Results

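The metabotropic glutamate receptors described here are the 6 genes Grm2, Grm3, Grm4, Grm5, Grm7 and Grm8. They were chosen by name, with earlier results of these data known. Each is the single row, out of 47643 gene rows in each regional count table, whose Ensembl identifier carries that symbol in the mouse annotation. Hippocampus and frontal cortex RNA was sequenced from juvenile germ-free female wild-type Swiss Webster mice, 6 to 8 weeks old and fed a control diet, after colonisation with stool from donors with refractory epilepsy. Stool from each of 10 donors was given as collected before a ketogenic diet (pre-KD) and after it (post-KD), which makes 20 recipient cohorts and 40 libraries, 10 for each region and condition. No library comes from a mouse that was not colonised or that ate the ketogenic diet. The labels give 1 library per cohort and region although several mice were dissected per cohort, so each replicate is a donor's cohort and the spread among single mice is not in these data.

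Metabotropic glutamate receptors are G protein-coupled receptors that tune synaptic transmission rather than carry ion current. Group I receptors, among them Grm5, sit mostly around the postsynaptic density and work through Gq/11, phospholipase C and calcium release from internal stores. Group II (Grm2, Grm3) and group III (Grm4, Grm6, Grm7, Grm8) receptors work through Gi/o, which holds back adenylyl cyclase, and most of them limit transmitter release from nerve terminals; Grm3 is also made by astrocytes. Both regions studied here take part in seizures, and drugs acting on these receptors alter seizures in rodents.

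In brief, no receptor gene passed the test between post-KD and pre-KD recipients in either region, with intervals that were narrow for Grm5 and wide for Grm2 and Grm8. Between the regions, fitted with a term per cohort, Grm3 was 2.66-fold and Grm4 2.06-fold lower in the hippocampus than in the frontal cortex. The other 4 genes did not pass. Without that term the log2 differences were smaller, -1.03 for Grm3 and -0.87 for Grm4. Neither gene passed in pre-KD cohorts alone, and Grm4 did not pass with limma-voom. Striatal markers were also lower in the hippocampus, and their part in these differences was not tested. Grm5 was the most abundant member per unit of exon length in all 40 libraries, at 1.33 to 6.05 times the next (median 2.83).

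Depth was shallow. Totals assigned to genes ran from 1140756 to 1947416 reads (median 1560670) for hippocampus libraries and from 1188447 to 2095352 (median 1718000) for frontal cortex libraries, and 1 gene, Gm42418, took 8.63% to 17.96% and 9.79% to 18.02% of them. Levels are given as counts per 1000000 reads (CPM), on library sizes scaled by the trimmed mean of M-values over all 40 libraries. The mice are described as female, but 4 Y-linked genes together held 139 to 276 reads in all 8 libraries of donors 9 and 10, in both conditions and regions, against 27 in 1 hippocampus library of donor 2 and at most 4 in any other. Without donors 9 and 10 the counts of receptors called were the same as with them, 0 post-KD in either region and 2 between the regions, and the differences of Grm3 and Grm4 between the regions were -1.43 and -1.09 on the log2 scale. Of 4 hippocampus markers, 3 were higher in the hippocampus. Of 5 cortical layer markers, Lamp5 and Rorb were higher in the frontal cortex but Fezf2 was higher in the hippocampus. The frontal cortex libraries also carried striatal markers and the hippocampus libraries choroid plexus markers, with values given beside the region comparison. Post-KD against pre-KD, 0 genes of the 15 marker lists passed an adjusted p of 0.05 in either region.

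Grm5, the group I member, lies on chromosome 7, from 87584168 to 88134907 on the plus strand of GRCm38/mm10 (GENCODE M21), a gene of 550.74 kb with 10247 bp of exon sequence. In the hippocampus Grm5 ran from 317 to 478 CPM (median 384) in pre-KD recipients and from 295 to 501 CPM (median 356) in post-KD recipients. The ranges overlapped almost fully, and the post-KD library was the lower of the pair for 6 of 10 donors. In the frontal cortex Grm5 ran from 261 to 471 CPM (median 416) in pre-KD recipients and from 297 to 414 CPM (median 350.2) in post-KD recipients. Here the post-KD library was the lower one for 8 of 10 donors, the lowest library of all was the pre-KD recipient of donor 1, and the groups still overlapped.

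The fitted change of Grm5 post-KD was -0.04 on the log2 scale in the hippocampus (SE 0.14, 95% interval -0.31 to 0.23) and -0.17 in the frontal cortex (SE 0.11, 95% interval -0.39 to 0.05). The frontal cortex value had the smallest p of any receptor in either region, and it did not pass (p = 0.119, adjusted p = 0.757, edgeR quasi-likelihood test with Benjamini-Hochberg adjustment). Of 21 alternative analyses, 2 gave an unadjusted p under 0.05 for Grm5 in the frontal cortex: limma-voom with sample weights (p = 0.0470) and leaving out donor 1 (log2 change -0.23, p = 0.0366). The lowest adjusted p in any of them was 0.460. With these intervals a Grm5 change of the size of the region differences of Grm3 and Grm4 would lie outside the range the data allow in both regions.

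**Figure D1:**
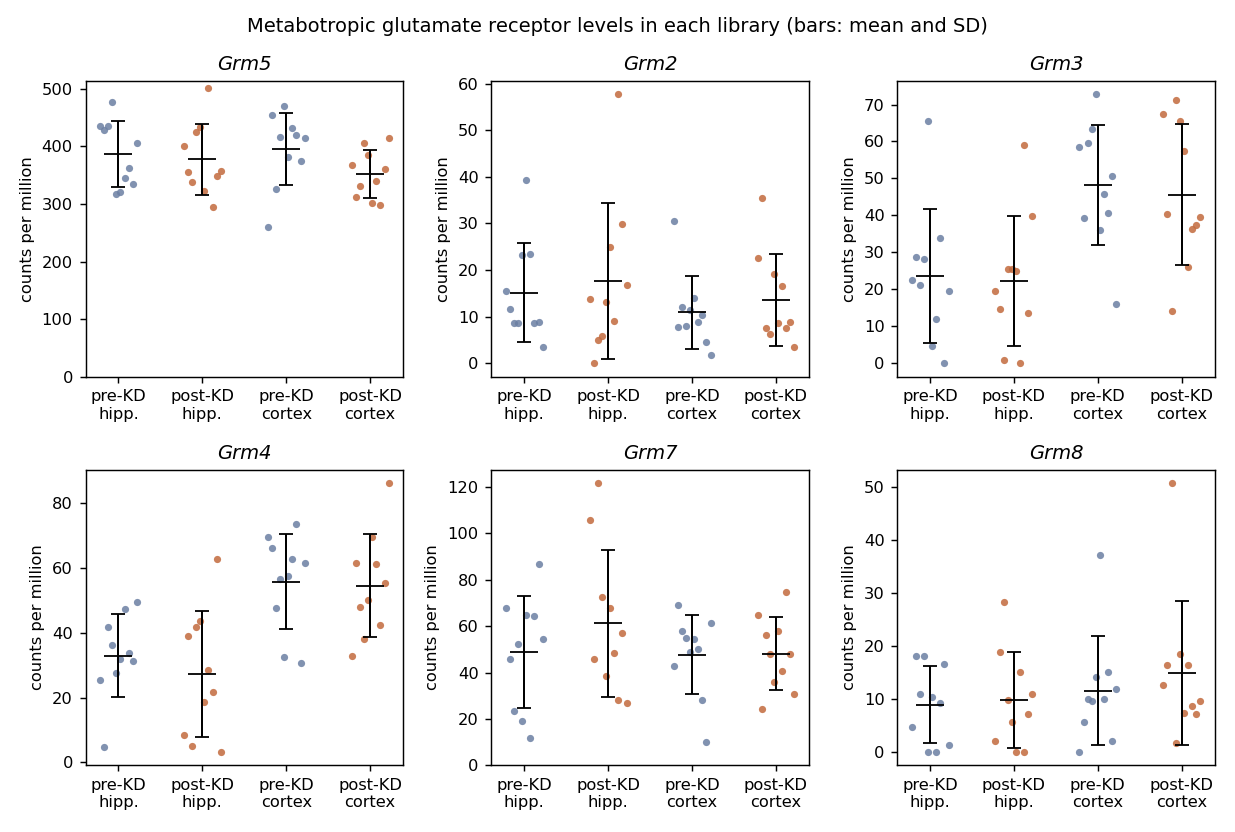
CPM of each receptor gene (vertical axes, linear, 1 panel per gene) in the 4 groups of 10 libraries: pre-KD and post-KD recipients, hippocampus (hipp.) and frontal cortex. Points are libraries, horizontal bars and whiskers the mean and SD. Pre-KD and post-KD points overlap in every panel, while Grm3 and Grm4 points sit lower in the hippocampus than in the frontal cortex.

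Group II receptors are the autoreceptors that act mainly outside or at the edge of the synapse. Grm2 lies on chromosome 9 (106643095 to 106656082, minus strand) and is compact, 12.988 kb against 99.017 to 921.65 kb for the other 5 genes. In the hippocampus Grm2 ran from 3.48 to 39.2 CPM (median 10.3) in pre-KD recipients and from 0 to 57.7 CPM (median 13.5) in post-KD recipients. Frontal cortex levels of Grm2 ran from 1.70 to 30.4 CPM (median 9.59) and from 3.40 to 35.4 CPM (median 8.79). These are 3 to 88 reads in the libraries that had any, and the groups overlapped throughout; the hippocampus medians and the pairs pointed in opposite directions, since 7 of 10 donors had the lower value post-KD. The fitted change was 0.20 (SE 0.66, 95% interval -1.10 to 1.502) in the hippocampus and 0.32 (SE 0.54, 95% interval -0.76 to 1.40) in the frontal cortex. As a ratio of post-KD to pre-KD, the hippocampus interval of Grm2 runs from 0.4663 to 2.83. With the stool donor as a block the hippocampus value turned to -0.17, and without donors 9 and 10 to -0.12, still uncalled.

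Grm3, on chromosome 5 (9485541 to 9725170, minus strand), is found both on neurons and on astrocytes. In the hippocampus it ran from 0 to 65.5 CPM (median 21.9) in pre-KD recipients and from 0 to 59.0 CPM (median 22.2) in post-KD recipients. Frontal cortex values ran from 15.9 to 72.7 CPM (median 48.2) pre-KD and from 14.02 to 71.3 CPM (median 40.02) post-KD. Pre-KD and post-KD groups overlapped in both regions, and the post-KD value was the lower one for 6 of 10 donors (hippocampus) and 5 of 10 (frontal cortex). The fitted post-KD change was -0.09 in the hippocampus (SE 0.57, 95% interval -1.22 to 1.04) and -0.09 in the frontal cortex (SE 0.26, 95% interval -0.60 to 0.42).

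Group III receptors stand in or near the active zone of the nerve terminal. Grm4 is on chromosome 17 (27422387 to 27521403, minus strand), Grm7 on chromosome 6 (110645581 to 111567230, plus strand) and Grm8 on the same chromosome (27275119 to 28135178, minus strand). Grm4 ran from 4.70 to 49.4 CPM (median 32.8) in the pre-KD hippocampus and from 3.22 to 62.8 CPM (median 25.0) in the post-KD hippocampus. Its frontal cortex values ran from 30.7 to 73.6 CPM (median 59.4) pre-KD and from 32.7 to 86.1 CPM (median 52.7) post-KD. The hippocampus spread was wider post-KD, with 3 of the 10 libraries under 10 CPM against 1 of 10 pre-KD, and the ranges overlapped. The fitted change was -0.28 (SE 0.45, 95% interval -1.17 to 0.62) in the hippocampus and -0.04 (SE 0.22, 95% interval -0.48 to 0.41) in the frontal cortex.

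Grm7 has the lowest glutamate affinity of the family and is the member most closely tied to the release site. It ran from 12.02 to 86.5 CPM (median 53.4) in the pre-KD hippocampus and from 27.1 to 122 CPM (median 52.7) in the post-KD hippocampus. Frontal cortex values ran from 9.99 to 68.9 CPM (median 52.3) pre-KD and from 24.4 to 74.6 CPM (median 48.1) post-KD. The group medians lay close together in both regions, and the highest post-KD values in the hippocampus came from the recipients of donors 1 and 3. The fitted change was 0.31 (SE 0.32, 95% interval -0.32 to 0.94) and 0.00 (SE 0.25, 95% interval -0.50 to 0.51). Grm7 shares 130 bp of exon with an antisense gene, Gm20387, which had 211 reads over all 40 libraries; whether the counting used strand is not given in the sources used here.

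Grm8 and Grm2 were the scarcest members. It ran from 0 to 18.2 CPM (median 9.80) in the pre-KD hippocampus and from 0 to 28.3 CPM (median 8.49) in the post-KD hippocampus. Frontal cortex values of Grm8 ran from 0 to 37.2 CPM (median 9.98) pre-KD and from 1.70 to 50.7 CPM (median 11.1) post-KD. All 4 groups overlapped, and the 2 highest frontal cortex values, 1 from each condition, stood well above the rest of their group. The fitted change was 0.13 (SE 0.90, 95% interval -1.66 to 1.91) and 0.36 (SE 0.55, 95% interval -0.75 to 1.46). The hippocampus interval runs from 0.317 to 3.76 as a ratio, so these data allow a large change in either direction. With limma-voom the hippocampus value of Grm8 turned to -0.31, also uncalled.

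Counted together, 0 of the 6 receptors passed an adjusted p of 0.05 post-KD against pre-KD in either the hippocampus or the frontal cortex (edgeR quasi-likelihood test). Over all genes the same test called 1 of 17529 (0.0057%) in the hippocampus and 1 of 17873 (0.0056%) in the frontal cortex, so a count of 0 among 6 is what the background gives. With the donor as a block these all-gene counts were 0 and 3, and the receptor counts stayed at 0. At an unadjusted p under 0.05 the receptor counts were also 0 and 0, beside 10.1% and 9.68% of all genes (2.32% and 4.06% with filterByExpr). DESeq2 and limma-voom likewise called 0 of 6 after adjustment in both regions. The median log2 change of the 6 was 0.04 (hippocampus) and -0.02 (frontal cortex), against -0.01 and 0.01 over all genes tested. The difference between the regions in the post-KD change was tested as an interaction, and 0 of 6 receptors passed (3 of 19422 genes, 0.0154%), nor did any have an unadjusted p under 0.05 (2.22% of genes); the fitted differences ran from -0.48 for Grm8 and for Grm4 to 0.35 for Grm7, the smallest p being 0.358.

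**Figure D2:**
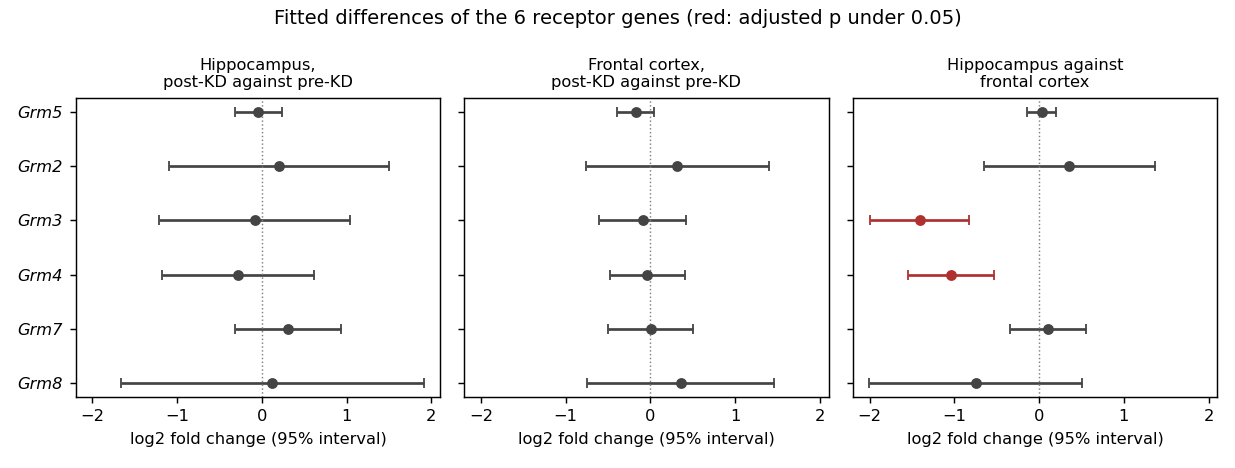
Fitted log2 fold change of each receptor gene (horizontal axes) with its 95% interval, for post-KD against pre-KD in the hippocampus, the same in the frontal cortex, and hippocampus against frontal cortex over both conditions. Red marks an adjusted p under 0.05. Every post-KD interval spans 0, that of Grm5 is the shortest, and only Grm3 and Grm4 between the regions lie wholly below 0.

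Hippocampus and frontal cortex came from the same 20 cohorts, so the regions were compared within cohorts, over both conditions. Grm3 had a median of 21.9 CPM in the hippocampus (range 0 to 65.5) and of 43.2 CPM in the frontal cortex (range 14.02 to 72.7). It was lower in the hippocampus in 17 of 20 cohorts, the exceptions being both cohorts of donor 10 and the post-KD cohort of donor 8, and the ranges overlapped. The fitted difference was -1.41 on the log2 scale (SE 0.30, 95% interval -1.99 to -0.82, adjusted p = 0.000236, edgeR quasi-likelihood test with Benjamini-Hochberg adjustment).

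Grm4 had a median of 31.5 CPM in the hippocampus (range 3.22 to 62.8) and of 56.9 CPM in the frontal cortex (range 30.7 to 86.1). It too was lower in the hippocampus in 17 of 20 cohorts, with the pre-KD cohort of donor 9 and the post-KD cohorts of donors 4 and 9 as exceptions. The fitted difference was -1.04 (SE 0.26, 95% interval -1.55 to -0.54, adjusted p = 0.00352, same test). The median over all 19422 genes in this fit was -0.17, and relative to it the differences were -1.24 for Grm3 and -0.88 for Grm4. That makes 2 of 6 receptors lower in the hippocampus and 0 higher, beside 1.98% and 0.87% of all genes.

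**Figure D3:**
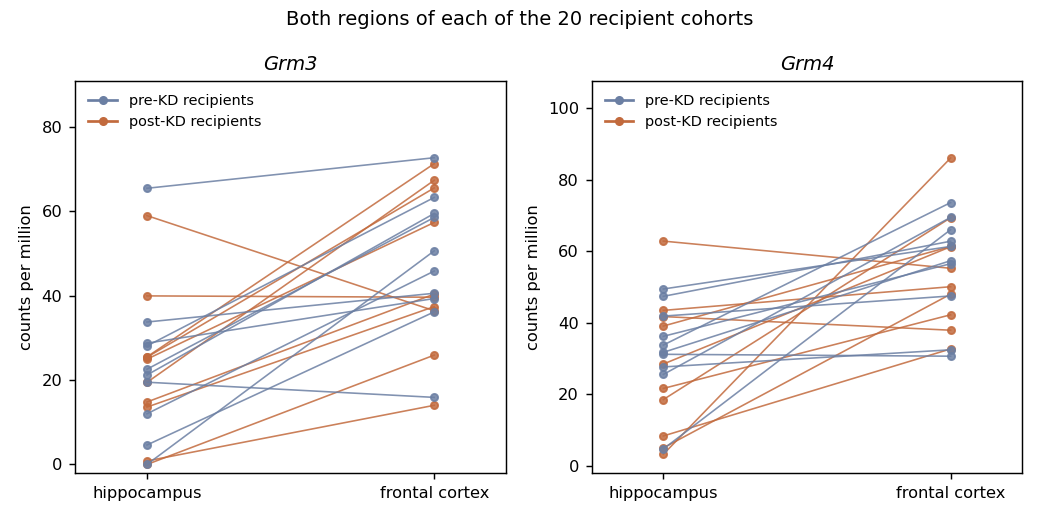
CPM of Grm3 (left) and Grm4 (right) in the hippocampus and frontal cortex library of each of the 20 recipient cohorts, joined by a line and coloured by condition. Lines climb from the hippocampus to the frontal cortex in 17 of 20 cohorts for each gene, and the 3 exceptions differ between the genes.

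The remaining receptors did not pass between the regions. Grm5 averaged 382 ± 58.1 CPM (SD, n = 20) in the hippocampus and 373 ± 56.6 CPM (SD, n = 20) in the frontal cortex, a fitted difference of 0.03 with a 95% interval of -0.14 to 0.21, and was higher in the hippocampus in 10 of 20 cohorts. Grm7 averaged 55.1 ± 28.1 CPM and 47.9 ± 16.02 CPM (fitted difference 0.10, 95% interval -0.34 to 0.55). Grm2 averaged 16.4 ± 13.7 CPM and 12.3 ± 8.74 CPM (0.36, 95% interval -0.65 to 1.37), and Grm8 9.38 ± 7.96 CPM and 13.2 ± 11.8 CPM (-0.75, 95% interval -2.003 to 0.51). Adjusted p for these 4 ran from 0.765 to 0.947 in the same test. Only the Grm5 interval is short enough to bound the regional difference to a small one, while those of Grm2 and Grm8 include differences as large as that of Grm4.

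Split by condition, the region difference of Grm3 was -1.33 in pre-KD cohorts alone (adjusted p = 0.0886) and -1.49 in post-KD cohorts alone (adjusted p = 0.0370), and that of Grm4 was -0.81 (adjusted p = 0.508) and -1.30 (adjusted p = 0.0429), all by the edgeR quasi-likelihood test. Of the 17687 genes in the pre-KD fit 0.69% were lower in the hippocampus, and of the 17756 in the post-KD fit 0.963%. Without the cohort term both passed, with smaller differences of -1.03 for Grm3 (adjusted p = 0.0108) and -0.87 for Grm4 (adjusted p = 0.00437), in the same test. With limma-voom Grm3 passed and Grm4 did not (-0.82, adjusted p = 0.0532). Both genes passed in each of the 10 fits that left out a donor.

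Each region was deposited as a table of its own, so region and any difference in dissection or library batch cannot be told apart. In whole tissue, fewer cells of a type and less RNA per cell cannot be told apart either. Striatal markers moved with this comparison. Of 7 striatal genes, 6 could be tested and all 6 were lower in the hippocampus, with a summed level of 33.0 to 295 CPM (median 128) there and 500.2 to 1103 CPM (median 915) in the frontal cortex. Drd1 averaged 16.8 and 94.5 CPM and Penk 25.6 and 210.1 CPM, whereas Drd2 had 0 counts in every hippocampus library and averaged 0.167 CPM in the frontal cortex. Choroid plexus markers went the other way, 4 of 5 higher in the hippocampus, with a sum of 489 to 4294 CPM against 6.98 to 583 CPM. Astrocyte markers, which bear on Grm3, had overlapping sums, 2552 to 3158 CPM (hippocampus) against 2737 to 3384 CPM (frontal cortex), and 1 of 8 (S100b) was lower in the hippocampus. Among inhibitory neuron markers Gad1 and Gad2, 2 of 6, were lower in the hippocampus, and among olfactory bulb markers Eomes and Th, 2 of 4. Of 5 thalamus markers 1 (Rora) was lower in the hippocampus (summed medians 174 and 209 CPM), and of 4 excitatory neuron markers Nrgn was lower and Neurod6 higher (9536 and 11770 CPM). The part of these tissues in the Grm3 and Grm4 differences was not tested.

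Levels between receptor genes were compared per kilobase of exon sequence, since the members' exon lengths run from 3049 bp (Grm3) to 10247 bp (Grm5). In the hippocampus Grm5 averaged 37.3 ± 5.67 CPM per kb, ahead of Grm7 (9.37 ± 4.77), Grm3 (7.54 ± 5.72), Grm4 (5.03 ± 2.72), Grm2 (3.35 ± 2.81) and Grm8 (0.948 ± 0.804; all SD, n = 20). In the frontal cortex the order on the same scale was Grm5 (36.4 ± 5.52), Grm3 (15.4 ± 5.68), Grm4 (9.22 ± 2.49), Grm7 (8.15 ± 2.72), Grm2 (2.504 ± 1.79) and Grm8 (1.34 ± 1.20).

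Neighbours in each order were compared within libraries by permutation (100000 sign flips, two-sided, 10 pairs adjusted together). In the frontal cortex 4 of 5 steps passed. Grm5 exceeded Grm3 in 20 of 20 libraries (adjusted p = 5e-05, from the smallest p these resamples can give), Grm3 exceeded Grm4 in 16 of 20 (adjusted p = 0.00656), Grm7 exceeded Grm2 in 19 of 20 (adjusted p = 6.67e-05) and Grm2 exceeded Grm8 in 16 of 20 (adjusted p = 0.00656). Grm4 and Grm7 did not differ beyond their spread (adjusted permutation p = 0.197). In the hippocampus only the ends of the order passed: Grm5 exceeded Grm7 in 20 of 20 libraries (adjusted p = 5e-05) and Grm2 exceeded Grm8 in 18 of 20 (adjusted p = 0.00783). Grm7, Grm3, Grm4 and Grm2 formed a middle run whose neighbours did not differ beyond their spread (adjusted permutation p from 0.147 to 0.758). Several of these steps rest on the length used. With the longest transcript of each gene in place of all annotated exons, Grm3 exceeded Grm4 in the frontal cortex in 12 of 20 libraries and no longer passed (adjusted permutation p = 0.19996), and Grm8 stood level with Grm2 there (2.76 against 2.60 CPM per kb, adjusted permutation p = 0.758). On that scale Grm2 exceeded Grm8 in 11 of 20 hippocampus libraries and did not pass (adjusted permutation p = 0.173), while Grm7 over Grm3 and Grm4 over Grm2 passed in the hippocampus (adjusted permutation p = 0.0451 for each). With no length scaling Grm4 stood above Grm3 in the frontal cortex (means 55.1 and 46.9 CPM). Only the lead of Grm5 passed in both regions on all 3 scales. The per-kb scale also takes reads to come from along the transcript, as the TruSeq kit named for these libraries gives them. The study's list of materials names a QuantSeq FWD kit too, which reads transcript ends, without saying for what; were it the kit used here, levels per kb would not be comparable between genes.

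As shares of the summed CPM per kb of the 6 members, Grm5 made up 58.7 ± 7.26% of the hippocampal sum and 49.9 ± 5.87% of the cortical one (SD, n = 20). The group II members made up 16.96 ± 10.98% and 24.2 ± 7.70%, and the group III members 24.3 ± 8.20% and 25.8 ± 5.90%. By condition the share of Grm5 moved by less than its SD: it was 59.6 ± 6.15% pre-KD and 57.9 ± 8.48% post-KD in the hippocampus, and 51.3 ± 7.04% and 48.6 ± 4.36% in the frontal cortex. Grm6, the receptor of retinal ON bipolar cells, had 0 counts in all 40 libraries, which allows at most 1.496 to 2.83 CPM per library (3 counts, counting error only).

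The members differed in how steady they were from library to library. Over the 20 hippocampus libraries the coefficient of variation of CPM was 15.2% for Grm5, 50.9% for Grm7, 54.1% for Grm4, 75.8% for Grm3, 83.8% for Grm2 and 84.8% for Grm8. Over the 20 frontal cortex libraries it was 15.1% for Grm5, 27.1% for Grm4, 33.4% for Grm7, 36.9% for Grm3, 71.3% for Grm2 and 89.5% for Grm8. A count of 0 occurred in 8 library values: 5 for Grm8, 2 for Grm3 and 1 for Grm2, with upper limits of 1.78 to 2.42 CPM (3 counts). Both Grm3 zeros were in the hippocampus, from the pre-KD cohort of donor 9 and the post-KD cohort of donor 7, whose frontal cortex libraries held 50.6 and 25.9 CPM.

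Whether a cohort high in one region was also high in the other was read from the 20 cohorts after removing the mean of each condition. Grm3 had the highest agreement, with Pearson r = 0.46 (permutation p = 0.0391, adjusted over the 6 genes 0.234) and Spearman rho = 0.38 (permutation p = 0.0958, adjusted 0.575). It did not pass the adjustment, it was r = 0.13 in pre-KD and r = 0.70 in post-KD cohorts, and without the 2 cohorts farthest from the median it was r = 0.57. The other 5 receptors had r from -0.16 to 0.09, none with an adjusted permutation p below 0.839. These pooled values were not steady: Grm2 had r = 0.63 in pre-KD cohorts (permutation p = 0.0487, adjusted 0.292) and r = -0.52 in post-KD cohorts, Grm5 had -0.34 and 0.53, Grm7 -0.43 and 0.40, and Grm8 -0.14 and 0.39, none past the adjustment. Without the 2 cohorts farthest from the median, Grm2 moved to r = 0.39 and Grm4 to r = 0.25.

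The genes whose log2 CPM followed each receptor most closely over the 40 libraries were named as a description, the best 2 of 7852 protein-coding genes with a mean of at least 20 counts (7853 for Grm8). They were Hivep3 (Pearson r = 0.62) and Rtf2 (0.58) for Grm5, Arid4b (0.58) and Zfp330 (0.55) for Grm2, and Osbp2 (0.70) and Mrpl58 (0.70) for Grm3. For group III they were Hipk2 (0.67) and Drd1 (0.66) for Grm4, Bex3 (0.65) and Polr2a (0.61) for Grm7, and Rabepk (0.68) and Snx21 (0.67) for Grm8. All are maxima over that many genes, and the libraries share 2 regions. For Drd1, the striatal dopamine receptor, the correlation with Grm4 was 0.47 within the hippocampus and 0.09 within the frontal cortex. Such a fall was not particular to Drd1. In the same order of regions the values were 0.61 and 0.25 for Hipk2, 0.83 and 0.32 for Mrpl58, 0.74 and 0.38 for Osbp2, and 0.76 and 0.28 for Arid4b. Zfp330, Rtf2 and Snx21 were higher within the frontal cortex.

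The downstream route was read from a list of 52 genes in 5 roles, all of which were tested in every comparison. Post-KD against pre-KD, 0 of 52 passed an adjusted p of 0.05 in either region, and 2 of 52 had an unadjusted p under 0.05 in each, beside 10.1% and 9.68% of all genes (edgeR quasi-likelihood test). These all-gene shares depend on the filter and were 2.32% and 4.06% with filterByExpr, so no depletion is read from them. The other tools also called 0 in both regions after adjustment. In the hippocampus the smallest p belonged to Rgs8, a regulator that shortens G protein signals. Its CPM ran from 31.7 to 124 (median 72.2) pre-KD and from 19.4 to 76.5 (median 39.1) post-KD, overlapping, with a log2 change of -0.73 (SE 0.30, p = 0.0173, adjusted p = 0.243). Pick1, a scaffold that binds the tail of the Grm7 receptor, ran from 2.18 to 58.9 CPM (median 18.8) and from 9.69 to 74.1 CPM (median 45.9), a log2 change of 0.88 (SE 0.42, p = 0.0378, adjusted p = 0.419). Grasp, a scaffold of group I receptors, had a change of 0.61 (SE 0.37, adjusted p = 0.719).

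Among frontal cortex libraries the 3 smallest p were those of Adcy9, an adenylyl cyclase (log2 change -0.62, SE 0.24, p = 0.0134, adjusted p = 0.227), Ncdn, whose product binds the Grm5 receptor (-0.23, SE 0.10, p = 0.0306, adjusted p = 0.397), and Rgs4 (-0.21, SE 0.11, p = 0.0563, adjusted p = 0.547), all in the same edgeR fit. Adcy9 ran from 22.5 to 79.1 CPM (median 60.1) pre-KD and from 16.01 to 56.6 CPM (median 40.3) post-KD, and the groups overlapped. None of these 6 passed the adjustment in any of their 21 alternative analyses. By role, median log2 changes ran from -0.13 to 0.09 (hippocampus) and from -0.08 to 0.03 (frontal cortex).

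Between the regions 12 of the 52 signalling genes passed (23.1%, beside 2.85% of all genes), 9 lower and 3 higher in the hippocampus. With filterByExpr, a stricter filter on low counts, the share over all genes was 3.5%. The list was chosen with earlier results of these data known, so no enrichment is read from these shares. The median over the list was -0.04 against -0.17 for all genes. The Gq/11 route that group I receptors use gave 3 of 10, all lower in the hippocampus. Plcb4, a phospholipase C, had a median of 42.0 CPM in the hippocampus and 99.1 CPM in the frontal cortex and was lower in the hippocampus in 20 of 20 cohorts (log2 difference -1.36, SE 0.19, adjusted p = 7.37e-11). Itpr1, the receptor that releases stored calcium, was lower (-0.70, SE 0.09), as was Plcb1 (-0.45, SE 0.09).

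The Gi/o route of groups II and III gave 3 of 15. Adcy5, the adenylyl cyclase that predominates in striatum, had a median of 37.2 CPM in the hippocampus and 90.1 CPM in the frontal cortex (-1.31, SE 0.20) and was lower in 17 of 20 cohorts. Adcy1, a calcium-stimulated cyclase, was higher in the hippocampus (0.45, SE 0.10) in 17 of 20 cohorts, and Prkacb, a catalytic subunit of protein kinase A, was lower (-0.35, SE 0.08) in 19 of 20. Of the 12 scaffolds and partners, 2 passed in opposite directions: Homer1, which ties group I receptors to Itpr1, was lower in the hippocampus (-0.75, SE 0.13), and its relative Homer2 was higher (0.48, SE 0.12).

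Among 9 desensitization genes, Rgs4 and Rgs2, which speed the shut-off of G proteins, were the 2 that passed. Rgs4 did not overlap between the regions: it ran from 60.4 to 331 CPM (median 240.2) across the hippocampus libraries and from 362 to 675 CPM (median 463) across those of the frontal cortex, a difference of -1.05 (SE 0.09, adjusted p = 4.22e-27). Rgs2 had medians of 90.6 and 184 CPM (-0.94, SE 0.13). Of the 6 genes of translation and receptor-dependent depression, Ptpn5, a striatum-enriched phosphatase that acts on glutamate receptors, was lower in the hippocampus in 20 of 20 cohorts (-1.05, SE 0.15). Cyfip1, a partner of the FMRP repressor of translation, was higher (0.71, SE 0.22, adjusted p = 0.0435, edgeR quasi-likelihood test), but it missed the threshold in 12 of its 20 alternative analyses, among them those without donor 1, 3, 5, 7, 8 or 10 (adjusted p from 0.0782 to 0.191).

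**Figure D4:**
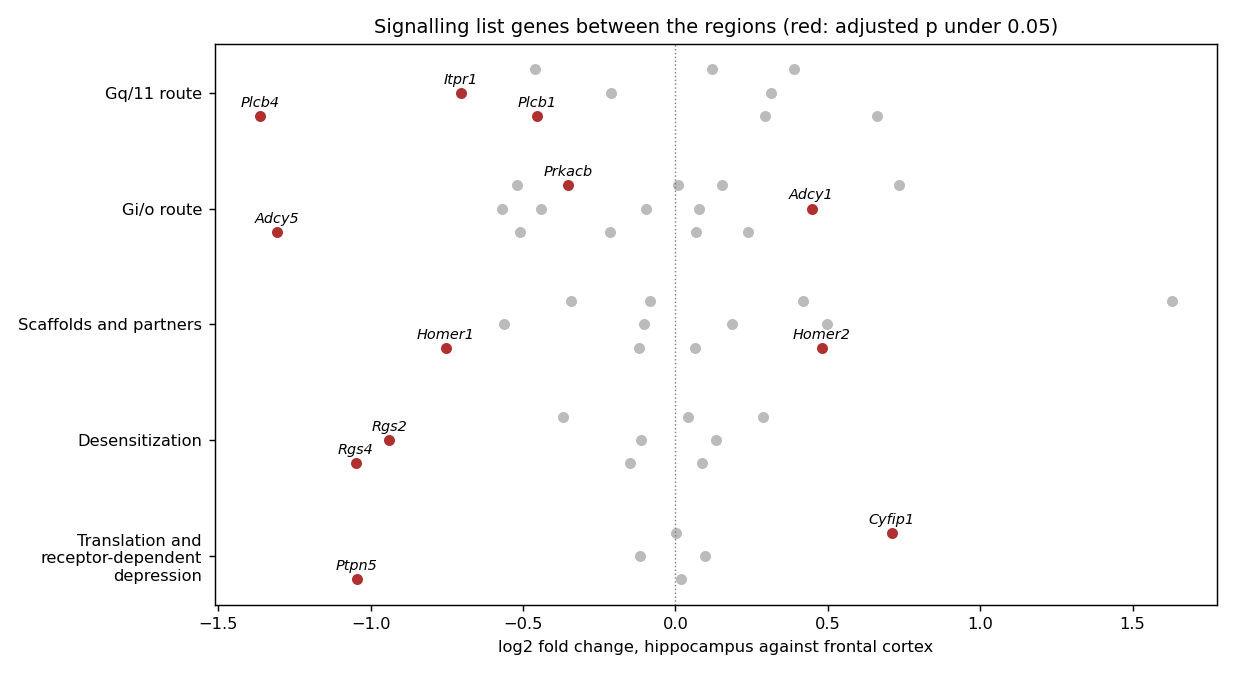
Log2 fold change, hippocampus against frontal cortex (horizontal axis), of the 52 signalling genes, 1 row of points per role. Red points with names passed an adjusted p of 0.05 and grey points did not. The red points number 12, 9 to the left of 0 and 3 to the right, with both directions in each role but the Gq/11 route and desensitization.

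The striatal marker sums also differed between the regions (medians 128 CPM in the hippocampus and 915 CPM in the frontal cortex), and Adcy5 and Ptpn5 are themselves rich in striatum. The part of striatal tissue in the signalling calls was not tested. Prkacb and Homer2 did not pass in pre-KD cohorts alone or in post-KD cohorts alone. Adcy1 did not pass in pre-KD cohorts alone (log2 difference 0.42, adjusted p = 0.164, edgeR quasi-likelihood test). Plcb1 passed in 19 of its 20 alternative analyses. In pre-KD cohorts alone 7 of the 52 genes passed, beside 1.09% of all genes, and in post-KD cohorts alone 9, beside 1.41%. These fits hold fewer libraries than the main one.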

How the data were processed

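The authors prepared libraries with the TruSeq RNA kit, aligned paired-end reads to mm10 with STAR 2.5.2a and counted them per Ensembl gene with HTSeq 0.6.0, and deposited raw counts in 1 table per region. The study's list of materials also names a QuantSeq FWD kit and HISAT2, which neither the labels nor the methods tie to these libraries. The annotation release and the strand setting are not given in the sources used here. Identifiers were matched to GENCODE M21 (47224 of 47643; 419 unmatched). The members and gene lists were chosen with earlier results of these data known. Genes with at least 10 counts summed over a fit's libraries were tested with edgeR 4.0.16 (R 4.3.3): trimmed mean of M-values, quasi-likelihood test, two-sided, Benjamini-Hochberg adjustment over all genes tested, threshold 0.05. Each region was fitted alone for post-KD against pre-KD with no donor term; the study names DESeq2 but no model terms. The regions were compared over 40 libraries with a term per cohort, and the interaction was added to that fit. Alternatives used DESeq2 1.42.0, limma 3.58.1 voom, other filters and scalings, donor blocks, leaving out each donor and, chosen after seeing the data, leaving out donors 9 and 10. Levels between genes used log2 CPM per kb with 0.5 CPM added, and correlations used log2 CPM with a prior count of 2.

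Pre-KD and post-KD libraries with the same number, 1 to 10 in the labels, are recipients of the same stool donor and so pair by design. Over 8016 hippocampus genes and 8255 frontal cortex genes, deviations from the group mean correlated between a donor's pre-KD and post-KD libraries by -0.03 to 0.03 and by -0.06 to 0.03, and 0 of 10 pairs passed 0.1 in either region. The donor was used as a block in an alternative fit only. The cohort is a term between the regions because both libraries come from 1 recipient cohort; their deviations correlated by -0.02 to 0.20, over 0.1 in 1 of 20 cohorts. No 2 libraries of a group were identical. Nothing in the labels names separate cultures or litters, so p-values measure the spread between cohorts only. Named genes were the 6 receptors, Grm6, signalling genes past the adjusted threshold post-KD or with the 3 smallest p in a region, up to 3 genes per role with the largest region difference among those that passed, and the 2 genes most like each receptor. Some genes of the fixed lists are not reported here, and list counts leave them out. The fits were checked on simulated counts with 200 changed genes before use.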

Additional observations from a re-analysis of the deposited data

Results flagged for a closer look

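A library was marked for a closer look where it lay so far from the other 9 of its group that the gap, as a share of the group's range, passed Dixon's critical value for 10 samples. This was applied to the 6 receptors in 4 groups each, 24 sets in all, and 5 were marked, where chance marks about 1 in 20 for normally distributed values; the rate for counts as low and skewed as these was not measured. All 5 were high values of genes with few reads. Grm2 reached 57.7 CPM (88 reads) in the post-KD hippocampus library of donor 8, the other 9 lying between 0 and 29.8 CPM, and 30.4 CPM (39 reads) in the pre-KD frontal cortex library of donor 1, the others lying between 1.70 and 13.95 CPM. Grm3 reached 65.5 CPM (90 reads) in the pre-KD hippocampus library of donor 5, against 0 to 33.8 CPM in the others. Grm8 reached 37.2 CPM (72 reads) in the pre-KD frontal cortex library of donor 6, against 0 to 15.1 CPM, and 50.7 CPM (94 reads) in the post-KD frontal cortex library of donor 3, against 1.70 to 18.4 CPM. No marked library belonged to the other region of a cohort marked for the same gene. Grm4, Grm5 and Grm7 had none, and no receptor passed the test of a different post-KD change in the 2 regions.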

How the results depend on the processing

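The counts of receptors called post-KD stayed at 0 in both regions under every alternative run: DESeq2, limma-voom, other filters and size factors, covariates for donors 1 to 5 against 6 to 10 and for Y-linked genes, removal of Gm42418, donor blocks, leaving out each donor and leaving out donors 9 and 10 together (chosen after seeing the data). Between the regions, 2 receptors were called under all alternatives but 2: pre-KD cohorts alone gave 0 and limma-voom gave 1. Of the signalling genes 12 were called, beside 2.85% of all genes. In pre-KD cohorts alone 7 were called, beside 1.09% of all genes, and the post-KD count is given with the region comparison. When a donor was left out 11 to 13 were called, while 447 to 555 of all genes were. Of the 10 neighbouring levels 6 differed, and 3 in post-KD libraries alone. The causes were not tested; the single-condition fits hold fewer libraries.

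Signs turned only for uncalled changes. With the donor number as a replicate block the hippocampus change of Grm2 post-KD was -0.17 (edgeR) and -0.16 (DESeq2) against 0.20, and it was -0.0563 with donors 1 to 5 against 6 to 10 as covariate and -0.16 in limma-voom. That block changed no call of a receptor or signalling gene, and among all genes it took the edgeR calls from 1 to 0 in the hippocampus and from 1 to 3 in the frontal cortex, and the DESeq2 calls from 0 to 0 and from 2 to 12. Grm3 in the hippocampus was 0.0015 with donors 1 to 5 against 6 to 10 as covariate, and its region difference in the change was 0.0112 without the cohort block. Grm7 in the frontal cortex was -0.0916 and Grm8 in the hippocampus -0.31 in limma-voom. Without donors 9 and 10 the change of Grm2 in the hippocampus was -0.12, that of Grm7 in the frontal cortex -0.0233, and the region difference of Grm7 -0.0280. The same fit kept the sign of the hippocampus change of Grm3 (-0.36 against -0.09) and Grm7 (0.58 against 0.31), of the frontal cortex change of Grm4 (-0.21 against -0.04) and of the region difference of Grm2 (0.06 against 0.36), all uncalled. With the donor block Grm4 in the hippocampus was -0.55 against -0.28, and in limma-voom -0.62, where Grm3 was -0.50. In pre-KD cohorts alone the region difference was -0.0301 for Grm5 and -0.0823 for Grm7.

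Leaving out 1 donor at a time moved the hippocampus change of Grm2 over -0.27 to 0.43, Grm3 over -0.29 to 0.20 and Grm8 over -0.17 to 0.31. In the frontal cortex it moved Grm2 over -0.0151 to 0.52, Grm3 over -0.18 to 0.0573, Grm4 over -0.12 to 0.0672, Grm7 over -0.15 to 0.15 and Grm8 over -0.11 to 0.84. Between the regions it moved Grm5 over -0.0117 to 0.0564 and Grm7 over -0.0466 to 0.20. With no change of sign it moved Grm4 over -0.51 to -0.06, Grm5 over -0.10 to -0.00222 and Grm7 over 0.06 to 0.45 in the hippocampus, and Grm2 over 0.21 to 0.53 and Grm8 over -1.06 to -0.47 between the regions.

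All-gene counts of calls moved more than the receptors did: 1291 in the hippocampus with no filter on low counts, 0 with filterByExpr and 0 with DESeq2; 2 with DESeq2 and 3 with limma-voom in the frontal cortex; 1033 with DESeq2, 2101 without the cohort block, 193 in pre-KD and 251 in post-KD cohorts alone between the regions, against 554; and 348 without the block and 0 with DESeq2 in the interaction, against 3. Grm2 and Grm8 had medians of 14 to 18 reads per library over each region. Their coefficients of variation within groups, 70.5% to 95.1%, exceeded the 19.5% to 26.2% that counting error alone gives; with 1 library per cohort and region, spread between cohorts and noise of library preparation cannot be told apart.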
